A study of Arabidopsis thaliana with 14 samples.

Results

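The genes described are the 5 phytochrome photoreceptors of Arabidopsis thaliana (PHYA, PHYB, PHYC, PHYD and PHYE) and 5 PHYTOCHROME INTERACTING FACTORS (PIF1, PIF3, PIF4, PIF5 and PIF7), chosen by name, 10 of the 27444 nuclear protein-coding genes. The data are the chromatin regions enriched for H3K36me3, histone H3 trimethylated at lysine 36, that overlap these gene bodies: 33 of 52588 regions at 25 °C and 26 of 50290 regions at 16 °C. All plants were Col-0 wild type, grown for 5 weeks at 16 °C under 8 h of light and 16 h of dark. The 25 °C group was collected 1 day after transfer to 25 °C and the 16 °C group without transfer, each between 5 and 6 h after the lights came on, from 0.5 g per sample. The label gives the tissue as shoot apical meristem (SAM) and early leaves, and other leaves had been pulled off with forceps to enrich for the SAM. At each temperature 4 samples were precipitated with an H3K36me3 antibody and 3 with an antibody against total H3, 14 samples in all. For replicate A of H3K36me3 at 25 °C the title names H3K36me3 but the antibody label names H3. The authors pooled the replicates of a temperature into 1 list, so that sample could not be looked at separately. No value below has a replicate error and no difference between the temperatures could be tested. The read depth is unknown.

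Phytochromes are red and far-red light receptors that carry a bilin chromophore. In their light-activated form they enter the nucleus, bind PIFs, which are basic helix-loop-helix transcription factors, and trigger the degradation of many PIFs. Active phytochrome B also reverts to its inactive form faster in the warmth, and PIF4 drives much of the growth response to warm temperature. H3K36me3 is laid down on gene bodies during transcription, in Arabidopsis mainly by the methyltransferase SDG8, and tends to lie towards the 5′ side of the genes that carry it.

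A region that overlapped a gene body by at least 1 bp made that gene marked, and the covered percent gives how much of the body, from gene start to gene end, lay inside regions. At both temperatures the same 9 of the 10 genes carried a region, all 5 phytochromes and 4 of the 5 PIFs. The stronger regions were those at or above the median −log10 p of their own list. In region height, the highest pooled read coverage, that limit was near 292 at 25 °C and 275 at 16 °C. With these alone, 6 of the genes kept a region at 25 °C and 9 did at 16 °C. The tallest regions of PIF3 (276), PIF4 (289) and PIF5 (277) at 16 °C lay between the 2 limits. Of all protein-coding genes, 46.9% kept a region at 25 °C and 43.5% at 16 °C. Within the first 1000 bp of the gene, 6 had a region at 25 °C and 7 had one at 16 °C. The same was so for 54.4% of all protein-coding genes at 25 °C and 50.7% at 16 °C. With all regions and the whole gene body, 59.5% of all 27444 genes were marked in the 25 °C list and 56.0% in the 16 °C list. Longer genes are marked more often, so values are also set beside the 10918 genes between 2275 and 5660 bp long, the lengths of the shortest and longest of the 10. Of those, 79.2% were marked at 25 °C and 76.5% at 16 °C. The covered percent was larger at 25 °C in 6 of the 10 genes (PHYA, PHYB, PHYC, PHYD, PIF3 and PIF4), smaller in 3 (PHYE, PIF1 and PIF5) and 0 at both temperatures in PIF7. The covered percent was larger at 25 °C in 47.3% and smaller in 17.2% of all protein-coding genes, and larger in 63.2% and smaller in 20.7% of those of like length, so 6 larger and 3 smaller of 10 is close to the background. The median change, 25 °C minus 16 °C, was 1.27 percentage points over the 10 genes, against 3.62 over the genes of like length and 0 over all protein-coding genes. It became −1.34 over the 10 genes, against 1.20 over those of like length, when only the stronger regions of each list by −log10 p were kept. The same unequal limits applied there.

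**Figure D1:**
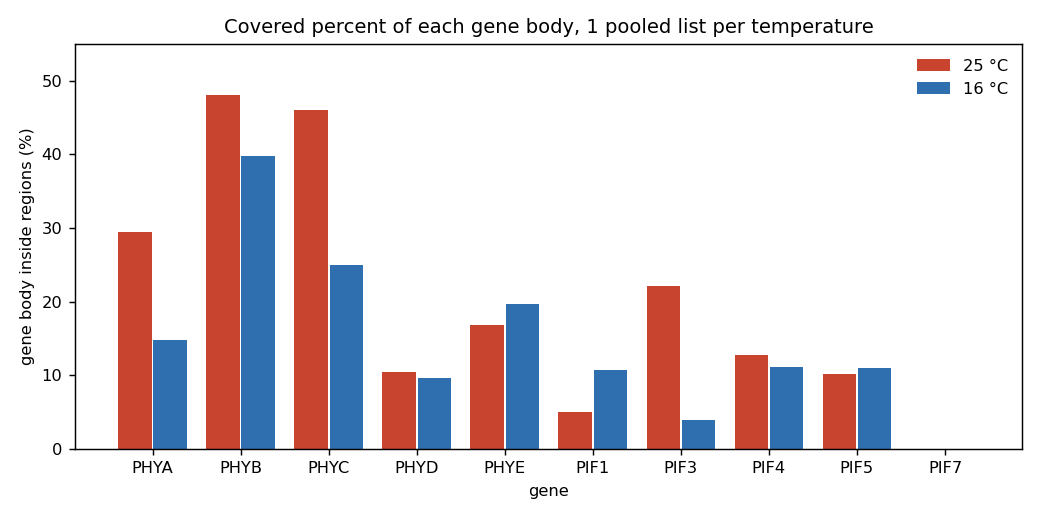
The vertical axis is the percent of each gene body inside H3K36me3 regions, with 25 °C in red and 16 °C in blue for the 10 genes, and each bar is 1 value from a pooled list with no error. PHYC, PHYA and PIF3 show the widest gaps, 46.0% against 25.0%, 29.5% against 14.8% and 22.1% against 3.86%, and PIF7 has no bar.

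By family, the phytochromes had a median covered percent of 29.5% at 25 °C and 19.7% at 16 °C, and the PIFs 10.2% at 25 °C and 10.7% at 16 °C. Genes of like length had a median of 25.1% at 25 °C and 16.4% at 16 °C. With the bases of a family added together, 30.1% of phytochrome sequence was covered at 25 °C and 21.5% at 16 °C, 11.2% of PIF sequence at 25 °C and 7.43% at 16 °C, and 23.9% of like-length sequence at 25 °C and 17.8% at 16 °C. The order of the genes at 25 °C was PHYB, PHYC, PHYA, PIF3, PHYE, PIF4, PHYD, PIF5, PIF1 and PIF7. At 16 °C it was PHYB, PHYC, PHYE, PHYA, PIF4, PIF5, PIF1, PHYD, PIF3 and PIF7. Without replicate values no spread separates neighbours in either order.

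**Figure D2:**
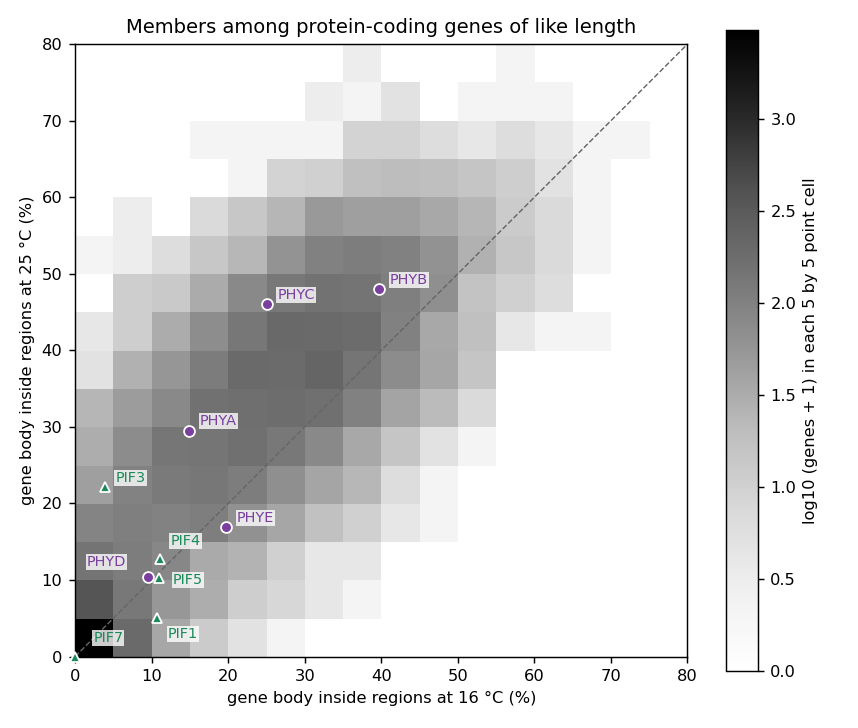
Each grey cell gives the number of protein-coding genes of like length, as log10 of the number plus 1, by covered percent at 25 °C (vertical) and at 16 °C (horizontal), with both axes drawn to 80%. Circles are phytochromes, triangles are PIFs and the dashed line marks equal values: PHYB and PHYC lie among the more covered genes, and PHYE, PIF1 and PIF5 lie below the line.

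The regions themselves are drawn along each gene. Positions below count from 1 at the first base of the annotated gene, in the direction of transcription, and the ends of regions fall on steps of 10 bp. Of the member regions, 24 of 33 at 25 °C and 22 of 26 at 16 °C had their centre in coding sequence. In a 5′ untranslated region (UTR) there were 5 at 25 °C and 3 at 16 °C, in an intron 3 at 25 °C and 1 at 16 °C, and 1 at 25 °C and 0 at 16 °C in a 3′ UTR. Coding sequence made up between 40.5% (PIF3) and 82.6% (PHYC) of these gene bodies. The same shares over all nuclear regions were not computed, so these counts are a description only. Most were narrow: 60.6% at 25 °C and 65.4% at 16 °C were no wider than 150 bp, about the length of DNA on a nucleosome, against 51.9% at 25 °C and 56.4% at 16 °C of all nuclear regions.

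**Figure D3:**
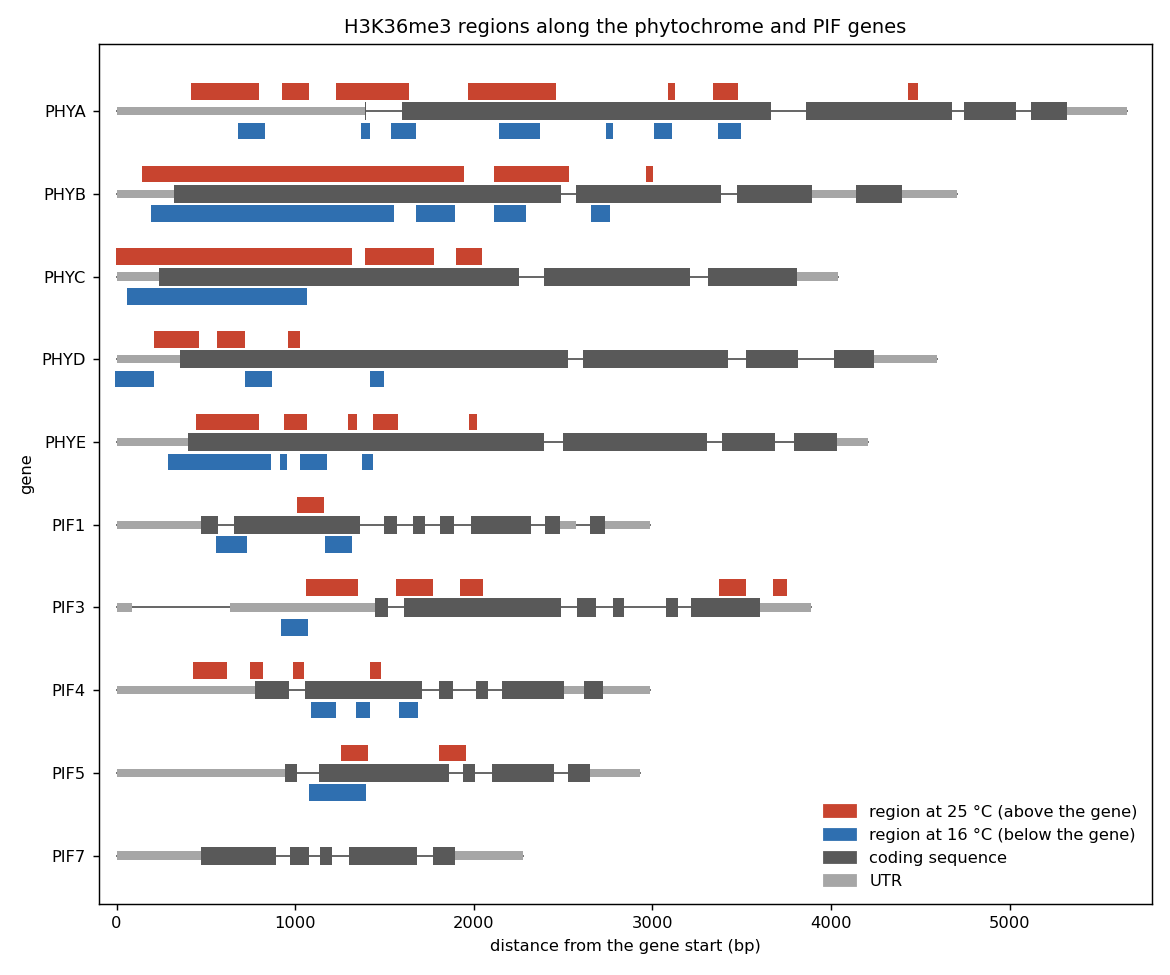
The horizontal axis is the distance from the gene start in bp, with regions at 25 °C in red above each gene and regions at 16 °C in blue below it. Dark boxes are coding sequence in any annotated transcript and light boxes are UTR. The wide regions of PHYB and PHYC lie towards the start of the gene at both temperatures, whereas the PIF regions are short and scattered.

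PHYB (AT2G18790), the main light-stable red light receptor, lies on chromosome 2 at 8139756 to 8144461 on the plus strand of TAIR10. It was the most covered of the 10 genes, with 48.0% of the body inside 3 regions at 25 °C and 39.7% inside 4 regions at 16 °C. These values stood above 89.2% of the genes of like length at 25 °C and above 90.6% at 16 °C. The widest region at 25 °C ran from base 146 to 1945, 1800 bp long with a height of 764, the height being the highest pooled read coverage in a region. At 16 °C the widest ran from base 196 to 1555, with a height of 785. The regions at 16 °C from 196 to 1555 and from 1676 to 1895 were 1 region at 25 °C. The bases between them were covered at 25 °C and not at 16 °C, and all lie in exon 1, which encodes the chromophore-bearing N-terminal part of the receptor. The stretch is shown to place that gap, with 30 bases on each side (2:8141281-8141460, plus strand, 45.0% G or C). Capitals mark the bases inside a region at 25 °C and in none at 16 °C.
PHYB: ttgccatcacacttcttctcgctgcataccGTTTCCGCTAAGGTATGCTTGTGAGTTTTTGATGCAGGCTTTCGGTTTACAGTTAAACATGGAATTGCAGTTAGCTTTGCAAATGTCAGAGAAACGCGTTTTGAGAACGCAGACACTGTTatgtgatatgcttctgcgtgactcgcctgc

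Of the bases of PHYB covered at 25 °C, 77.9% were also covered at 16 °C, and of those covered at 16 °C, 94.1% were also covered at 25 °C. The covered share was 85.5% at 25 °C and 80.5% at 16 °C in the first 1000 bp, and 94.5% at 25 °C and 77.5% at 16 °C in the next 1000 bp. Beyond 2000 bp it was 17.0% at 25 °C and 10.7% at 16 °C. Most of the covered bases of PHYB lay in the first 2000 bp at both temperatures.

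PHYC (AT5G35840), a light-stable receptor that works largely in dimers with PHYB, lies on chromosome 5 at 14007812 to 14011848, plus strand. It had the largest difference in covered percent of the 10 genes, with 46.0% in 3 regions at 25 °C and 25.0% in 1 region at 16 °C, a difference of 21.0 points. The regions at 25 °C spanned bases 0 to 1319, 1390 to 1779 and 1900 to 2049, and the region at 16 °C spanned bases 60 to 1069. Base 0 is the base just upstream of the annotated start. All bases covered at 16 °C were covered at 25 °C. The difference lay mainly in the 1000 bp up to base 2000, where 81.0% was covered at 25 °C and 6.90% at 16 °C, while the first 1000 bp were covered to 100% at 25 °C and 94.1% at 16 °C. The tallest region was lower at 25 °C (603) than at 16 °C (700). The 3′ edge of the wide region is shown because it lay 250 bases farther into exon 1 at 25 °C (5:14008851-14009130, plus strand), with capitals as above.
PHYC: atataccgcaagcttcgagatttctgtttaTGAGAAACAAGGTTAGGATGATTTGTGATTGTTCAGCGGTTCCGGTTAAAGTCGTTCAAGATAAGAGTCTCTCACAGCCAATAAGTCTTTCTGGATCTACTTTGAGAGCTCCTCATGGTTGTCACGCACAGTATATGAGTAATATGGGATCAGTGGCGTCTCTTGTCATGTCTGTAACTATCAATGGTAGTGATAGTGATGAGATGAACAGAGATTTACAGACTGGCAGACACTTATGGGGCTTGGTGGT

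PHYA (AT1G09570), the light-labile receptor that acts in far-red light, lies on chromosome 1 at 3095160 to 3100819, minus strand, and is the longest of the 10 genes. It held 7 regions at each temperature, and they covered 29.5% at 25 °C and 14.8% at 16 °C. At 25 °C the widest spanned 490 bp, and at 16 °C 230 bp. They reached from base 420 to 4489 at 25 °C and from base 680 to 3499 at 16 °C. The merged 5′ UTR, which runs to base 1392 and includes introns of some transcripts, was covered to 49.8% at 25 °C and 12.4% at 16 °C, and the coding sequence to 23.0% at 25 °C and 17.4% at 16 °C. The difference was wider in the 5′ UTR than in the coding sequence. Of the bases covered at 16 °C, 75.0% were covered at 25 °C. PHYA and PIF3 were the 2 genes whose tallest region was higher at 25 °C, at 395 in PHYA at 25 °C against 362 at 16 °C.

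PHYD (AT4G16250), the closest relative of PHYB, with which it shares a role in shade avoidance, lies on chromosome 4 at 9195247 to 9199840, minus strand. It was the least covered phytochrome, at 10.4% at 25 °C and 9.58% at 16 °C, with 3 regions at each temperature. The difference of 0.871 points became −7.84 when only the stronger regions by −log10 p were kept. The regions at 25 °C spanned bases 211 to 460, 561 to 720 and 961 to 1030, and those at 16 °C ran from 9 bp upstream to base 210, from 721 to 870 and from 1421 to 1500. No base was covered at both temperatures, although regions of the 2 lists met end to end between bases 210 and 211 and between bases 720 and 721. The second of these borders is shown (4:9199091-9199150, minus strand, read in the direction of the gene), with the 25 °C region in capitals and the 16 °C region in lower case. The tallest region had a height of 256 at 25 °C and 385 at 16 °C.
PHYD: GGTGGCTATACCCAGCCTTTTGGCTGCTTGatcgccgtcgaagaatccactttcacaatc

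PHYB and PHYD are alike enough in sequence that short reads could in principle be misplaced. No word of 50 bases, the read length, in either gene had an exact copy elsewhere in the genome. Only 10 words of each were within 2 mismatches of the other gene, over 62 bp. Those bases were covered in PHYB, 62 of them at 25 °C and 31 at 16 °C, and in PHYD none was covered in either list.

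PHYE (AT4G18130), a light-stable receptor with roles in shade avoidance and germination, lies on chromosome 4 at 10042137 to 10046346, minus strand. It was the phytochrome with less of its body covered at 25 °C, 16.9% in 5 regions against 19.7% in 4 regions at 16 °C. The widest region was 350 bp at 25 °C, from base 447 to 796, and 580 bp at 16 °C, from base 287 to 866, so the 25 °C region lay within the bounds of the 16 °C region. In the first 1000 bp 41.4% was covered at 25 °C and 62.0% at 16 °C, and in the next 1000 bp 28.0% at 25 °C and 21.0% at 16 °C. The 5′ UTR was not covered at 25 °C and was covered to 28.1% at 16 °C. The tallest region had a height of 470 at 25 °C and 539 at 16 °C.

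Among pairs of the marked genes, the pattern along the gene was most alike in PHYB and PHYC. With each gene cut into 20 equal parts and both lists joined, Pearson's r over the 40 values was 0.765 for PHYB and PHYC, 0.715 for PHYB and PHYE and 0.685 for PHYC and PHYE. The other phytochrome pairs had r between 0.132, for PHYA and PHYD, and 0.517, for PHYA and PHYC, with 0.293 for PHYB and PHYD. The highest r of a phytochrome with a PIF, 0.390 for PHYB and PIF4, lay within that range. Parts of a gene are not independent, and these values are a description of 2 lists. No r was computed for pairs of other genes, so a likeness particular to phytochromes cannot be read from them.

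PIF3 (AT1G09530), the founding member of the PIFs and a repressor of seedling greening in the dark, lies on chromosome 1 at 3075768 to 3079654, plus strand. It was the PIF with the largest difference, with 22.1% in 5 regions at 25 °C and 3.86% in 1 region at 16 °C. The regions at 25 °C spanned bases 1064 to 1353, 1564 to 1773, 1924 to 2053, 3374 to 3523 and 3674 to 3753, and the region at 16 °C spanned bases 924 to 1073. The 2 lists shared 10 bp. The coding sequence was covered to 28.1% at 25 °C and not at all at 16 °C, and PIF3 was the one gene of the 10 with a covered base in the 3′ UTR, 27.9% of it at 25 °C. Within the first 1000 bp, which in PIF3 is the 5′ UTR and its introns, the order was the other way, 0% at 25 °C and 7.70% at 16 °C. The heights at 25 °C were between 287 and 390, and that at 16 °C was 276. The second region at 25 °C, which crosses from an intron into coding exon sequence, is shown because no region lay on it at 16 °C (1:3077331-3077540, plus strand, 163 coding and 47 intronic bases). All its bases are capitals.
PIF3: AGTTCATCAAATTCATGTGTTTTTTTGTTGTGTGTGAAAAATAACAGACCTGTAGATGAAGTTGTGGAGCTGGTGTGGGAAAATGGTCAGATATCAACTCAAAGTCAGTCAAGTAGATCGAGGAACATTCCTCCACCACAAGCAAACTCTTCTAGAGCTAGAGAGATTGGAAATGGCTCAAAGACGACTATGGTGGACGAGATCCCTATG

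PIF4 (AT2G43010), the factor best known for warm-temperature growth, lies on chromosome 2 at 17886101 to 17889087, plus strand. It was covered to 12.7% in 4 regions at 25 °C and 11.0% in 3 regions at 16 °C. No base was shared. The regions at 25 °C spanned bases 431 to 620, 751 to 820, 991 to 1050 and 1421 to 1480. Those at 16 °C spanned bases 1091 to 1230, 1341 to 1420 and 1581 to 1690. The 5′ UTR was covered to 27.8% at 25 °C and 0% at 16 °C, and the coding sequence to 7.18% at 25 °C and 22.8% at 16 °C. The difference of 1.67 points turned round under 4 of the alternatives, to between −2.01 and −8.53, the lowest with the coding span alone. The tallest region had a height of 267 at 25 °C, below the median nuclear region of that list (292), and 289 at 16 °C, above the median there (275). The border of the abutting regions at base 1420 is shown (2:17887491-17887550, plus strand), with the 16 °C region in lower case and the 25 °C region in capitals.
PIF4: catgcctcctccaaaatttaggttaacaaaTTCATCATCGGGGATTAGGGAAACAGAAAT

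PIF1 (AT2G20180, named PIL5 in RefSeq), a repressor of seed germination, lies on chromosome 2 at 8704024 to 8707009, minus strand. It was covered to 5.02% in 1 region at 25 °C, bases 1010 to 1159, and to 10.7% in 2 regions at 16 °C, bases 560 to 729, centred in an intron, and 1170 to 1319. No base was shared, and 10 bases lay between the 25 °C region and the second 16 °C region in the same exon. The facing ends of these 2 regions are shown, with capitals for bases inside the 25 °C region and lower case for the 10 bases in neither and the 30 in the 16 °C region (2:8705811-8705880, minus strand). The tallest region had a height of 312 at 25 °C and 387 at 16 °C.
PIF1: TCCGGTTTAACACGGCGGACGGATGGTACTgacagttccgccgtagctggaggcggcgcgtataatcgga

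PIF5 (AT3G59060, named PIL6 in RefSeq), which promotes elongation in shade together with PIF4, lies on chromosome 3 at 21827905 to 21830837, minus strand. It was covered to 10.2% in 2 regions at 25 °C, bases 1258 to 1407 in coding sequence and 1808 to 1957 centred in an intron, and to 10.9% in 1 region at 16 °C, bases 1078 to 1397. The lists shared 140 bp. Its tallest region had a height of 257 at 25 °C and 277 at 16 °C.

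PIF7 (AT5G61270), which is needed for the rapid growth response to shade, lies on chromosome 5 at 24638491 to 24640765, minus strand, and is the shortest of the 10 genes. No region of either list overlapped it. Among genes of like length, 1675 of 10918 were in neither list. A gene without a region can still carry H3K36me3 below the height at which regions were called, which was 179 in both lists.

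**Figure D4:**
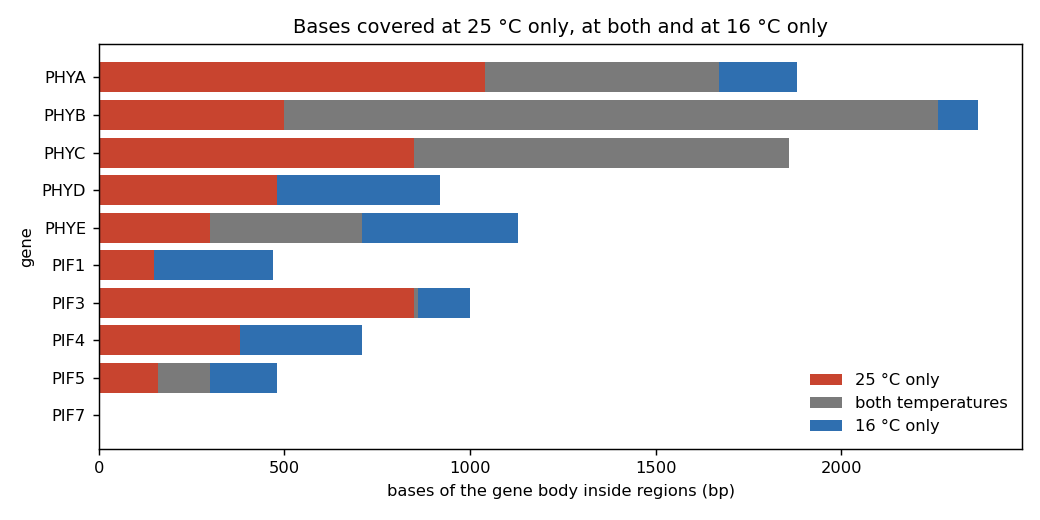
The horizontal axis counts bases of each gene body inside regions, split into those at 25 °C only (red), at both temperatures (grey) and at 16 °C only (blue). PHYB and PHYC have the longest shared stretches, 1760 and 1010 bp, and PHYD, PIF1 and PIF4 have no shared base.

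The bases that the 2 lists shared lay mostly in the more covered genes, 1760 bp in PHYB and 1010 bp in PHYC of 3810 bp in all phytochromes, with 0 in PHYD. Of phytochrome bases covered at 25 °C, 54.6% were covered at 16 °C too, and of those covered at 16 °C 76.4% were covered at 25 °C too. In the PIFs these shares were 8.88% of the 25 °C bases and 13.4% of the 16 °C bases. In genes of like length with under 15% covered in each list they were 9.18% at 25 °C and 12.5% at 16 °C. Over all genes of like length they were 52.6% of the 25 °C bases and 70.4% of the 16 °C bases. PIF3, covered to 22.1% at 25 °C, lies outside the class under 15%. It held 860 of the 1690 PIF bases covered at 25 °C. In the 5 members inside that class (PHYD, PIF1, PIF4, PIF5 and PIF7) the shares were 10.7% of the 25 °C bases and 9.93% of the 16 °C bases. These were near the shares of the like-length genes in the class. Of the 9 marked genes, 3 (PHYD, PIF1 and PIF4) had no shared base. Among genes of like length marked in both lists 10.2% had none. All 3 were thinly covered, and among the like-length genes marked in both lists with under 15% covered in each, 64.1% had no shared base. Of the members under that limit and marked in both lists (PHYD, PIF1, PIF4 and PIF5), 3 of 4 had none, so against genes of the same thin cover the count is near the background. How far region positions differ between replicates of 1 temperature could not be set beside that.

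**Figure D5:**
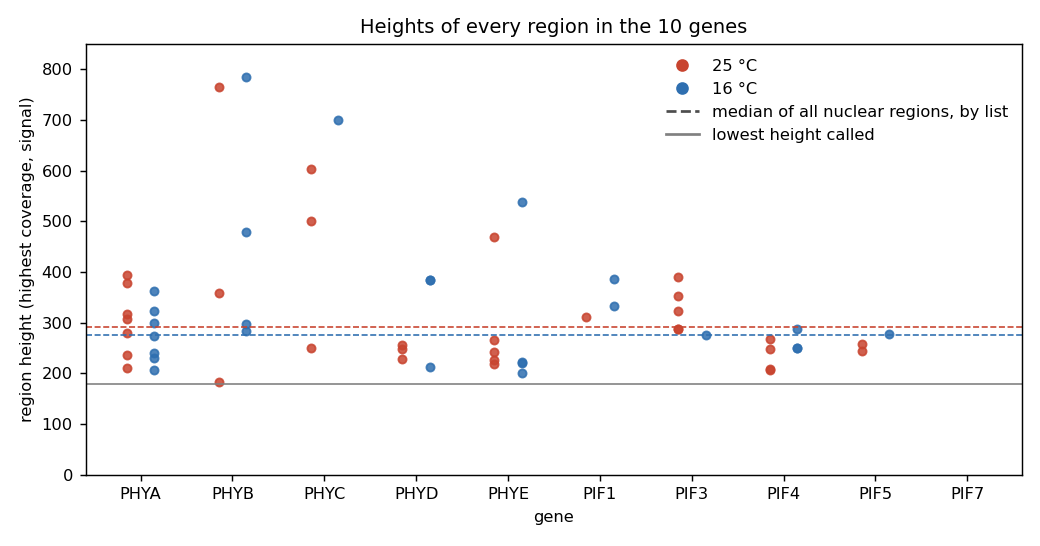
Each point is the height of 1 region, the highest pooled read coverage inside it, for 25 °C (red) and 16 °C (blue). Dashed lines are the medians of all nuclear regions (292 at 25 °C and 275 at 16 °C) and the grey line is the lowest height called at 25 °C, 179; outside PHYB, PHYC and PHYE the highest point is 395, in PHYA at 25 °C.

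More cover at 25 °C did not go with taller regions in most of these genes. The tallest region was higher at 25 °C in 2 of the 9 marked genes, PHYA and PIF3, whereas it was higher at 25 °C in 72.5% of the like-length genes marked in both lists. In PHYB and PHYC the tallest region was lower at 25 °C (764 against 785 in PHYB and 603 against 700 in PHYC) although more of the gene was covered. Chloroplast regions were estimated to make up 26.2% of total coverage in the 25 °C list and 34.9% in the 16 °C list. The total was inferred from the Poisson mean of 107.15 and the genome length. Nuclear coverage was not summed: its share, 72.0% (25 °C) and 63.1% (16 °C), is the remainder after chloroplast and mitochondria. How far this shift entered the differences above was not tested, beyond 1 alternative that left out 25 °C regions under 205. That limit was set from the ratio of the estimated nuclear shares, 1.142. With it, the same numbers of genes were larger (6) and smaller (3). Of the regions in the 10 genes it removed only a 40 bp region of PHYB with a height of 184. The PHYB difference became 7.44 points and the other genes kept all their regions, so those numbers could hardly change. Regions that were kept had their widths as called, so this alternative does not show how far the shift entered. In whole tissue, a change in how many cells carry the mark cannot be told apart from a change within cells.

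In all 9 marked genes, bases covered in either list were richer in G and C than the rest of the gene body. How often this holds over all protein-coding genes was not computed, so it cannot be called particular to these genes. The content was 45.0% in covered against 41.1% in uncovered bases of PHYB, 44.9% against 40.1% in PIF1 and 44.0% against 43.8% in PHYD, the narrowest difference. In PIF1, 94.3% of words of 50 bases were unique in the genome. The repeated words lay between bases 2354 and 2785, where no base was covered in either list. The other 9 genes had no repeated word. PHYE, PIF1 and PIF7 overlap a neighbouring gene by 60, 334 and 318 bp, and none of those bases was covered.

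Genes that work with these factors are set beside them. In a list of 17 genes for chromophore synthesis, nuclear import and partners of phytochromes, 16 were marked at 25 °C and 15 at 16 °C, with a median covered percent of 36.1% at 25 °C and 29.0% at 16 °C. The covered percent was larger at 25 °C in 12 and smaller in 4 (FHY1, PCH1, LRB1 and PPK4). FHY3 and FAR1, transposase-derived transcription factors that raise the supply of the phytochrome A import proteins, had 32.6% (FHY3) and 34.5% (FAR1) at 25 °C, against 16.7% (FHY3) and 19.2% (FAR1) at 16 °C. LRB1, part of a ubiquitin ligase that acts on PIF3 and phytochrome B, had 40.6% at 25 °C and 49.5% at 16 °C, and PPK4, a kinase of the family that phosphorylates PIF3, 46.1% at 25 °C and 50.3% at 16 °C. The medians of the 5 PIFs, 10.2% at 25 °C and 10.7% at 16 °C, lay below those of this list. So did the medians of the 5 phytochromes, 29.5% at 25 °C and 19.7% at 16 °C.

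Among 6 further genes of the PIF subfamily or close to it, 2 were marked at 25 °C and 1 at 16 °C. SPT (SPATULA), which acts in seed dormancy and flower development, had 19.5% in 5 regions at 25 °C and no region at 16 °C, and PIL2 had 3.70% at 25 °C and none at 16 °C. UNE10 had none at 25 °C and 1.96% at 16 °C. Of 9 known PIF targets, 2 carried a region at 25 °C and 0 did at 16 °C: TAA1, an auxin synthesis enzyme, at 5.36%, and XTR7 (XTH15), a cell wall enzyme, at 3.71%. YUC8, IAA19, IAA29 and FT, targets with known roles in auxin and flowering, had no region in either list. Compared with the 59.5% and 56.0% of all genes marked, both lists were sparsely marked, and their genes are shorter than the members, at a median of 2284.5 bp for the PIF relatives and 1695 bp for the targets.

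Marker genes were set beside the tissue label, SAM and early leaves after removal of other leaves. Of 7 shoot meristem markers 1 was marked at 25 °C and 4 at 16 °C, none over 5.15% of its length, WUS having 5.15% at 25 °C and 0% at 16 °C and KNAT1 0% at 25 °C and 2.31% at 16 °C. STM, KNAT2 and CUC2 were the others marked at 16 °C. Of 5 leaf markers 3 were marked at 25 °C and 4 at 16 °C, LHCA1 at 36.5% at 25 °C and 53.8% at 16 °C, RCA at 21.9% at 25 °C and 6.11% at 16 °C, AS1 at 12.0% at 25 °C and 23.1% at 16 °C, and RBCS1A at 0% at 25 °C and 9.27% at 16 °C. Of 5 root markers, SCR, which is active in shoots too, was marked at 35.3% at 25 °C and 15.9% at 16 °C, and PLT1, PLT2, WOX5 and SHR had no region. The defining meristem genes were thus at or near 0 in both lists although the tissue was enriched for the meristem. The leaf markers varied, from CAB1 with no region in either list to LHCA1, the most covered.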

How the data were processed

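H3K36me3 and total H3 were measured by ChIP-seq in 14 samples, 8 with the H3K36me3 antibody and 6 with H3. According to the study's methods and the submitters' notes, 50 bp single reads were mapped to TAIR10 with Bowtie or Bowtie2 (no version named). The authors called regions with the Dpeak function of DANPOS2, extending reads to 150 bp, and pooled the replicates of a temperature. The sources used here leave out how H3 entered the calling. Each deposited list holds a start, an end, a width, the coverage summed over the region, and the height, a signal (the highest read coverage), and the −log10 p-value of the height. These deposited −log10 p-values ranked regions within a list. No value per replicate was at hand, so no test was run.

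Gene bodies were taken from RefSeq's TAIR10.1 annotation. Its nuclear chromosomes have the TAIR10 lengths. Regions were intersected with them in Python 3.11.15 (numpy 2.4.6, pandas 2.3.3, matplotlib 3.10.9), and the code was tested on simulated regions. Coding sequence in any transcript took precedence over UTR, and UTR over intron. Heights were used as deposited: the lowest were 179.31 at 25 °C and 179.44 at 16 °C, and the −log10 p of that region gave a Poisson mean of 107.15 in both lists. The members and lists were chosen with earlier results of these data known. All 10 members are named. From each other list, 2 genes were named for the highest mean cover and 2 for the largest difference, a gene that meets both conditions counting once, and any further gene was named after its values were seen. Alternatives were the stronger regions, width limits, equal numbers of regions, region centres, 150 bp covered, the first 1000 bp and the coding span. The stronger regions were those at or above the median −log10 p of their own list.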

Additional observations from a re-analysis of the deposited data

How the results depend on the processing

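No paired analysis was possible because each deposited list pools the replicates of a temperature, and for the same reason no replicate could be left out. The median change over the 10 genes, 1.27 points, became −1.34 with only the stronger regions by −log10 p (26374 at 25 °C and 25246 at 16 °C), 0.544 without regions under 100 bp, 5.36 with regions over 150 bp alone, 0.435 with equal numbers of the tallest regions (45150 in each list) and 2.50 in the first 1000 bp. Over the like-length genes it ranged from 1.20 to 3.94. Of the single genes, PHYD became −7.84 with the stronger regions, PIF3 became −7.70 in the first 1000 bp, and PIF4 became −2.68 with the stronger regions, −2.01 without regions under 100 bp, −7.03 with equal numbers and −8.53 in the coding span. PHYA (7.89 to 30.1), PHYB (5.00 to 9.78) and PHYC (5.90 to 22.1) stayed positive, and PHYE (−20.6 to −0.220) and PIF1 (−17.0 to −5.69) negative, under all 8 alternatives that give a covered percent. Asking for 150 bp covered bears on the counts of marked genes alone and left them at 9 at 25 °C and 9 at 16 °C. Over the alternatives the number of marked genes ranged from 6 to 9 in the 25 °C list. In the 16 °C list it ranged from 7 to 9, and with regions over 150 bp it was 7 in each list. The background was lower there too. Regions over 150 bp lay on 46.1% (25 °C list) and 41.4% (16 °C list) of all protein-coding genes. With all regions these shares were 59.5% (25 °C) and 56.0% (16 °C). The number of genes larger at 25 °C ranged from 4 to 6. Among genes of like length, the larger share ranged from 52.0% with the stronger regions to 63.0% with region centres. The 3 genes with no shared base fell to 1 with the stronger regions, with regions over 150 bp and in the first 1000 bp. No background was computed for that count under the alternatives. The alternative that left out 25 °C regions under 205 was chosen after seeing the data. The cause of these shifts was not tested.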
